A study of Mus musculus with 47 samples.

Results

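The genotype effect of the (Thy1)-h[A30P]alphaSYN transgene was compared between hippocampus and brainstem in RNA-seq libraries of male mice aged about a year. Hippocampus was represented by 24 libraries, 6 from each of 4 groups, namely wild-type (WT) mice on a standard diet (SD), WT mice on a high-fat diet (HFD), transgenic (TG) mice on SD and TG mice on HFD. Brainstem, taken as the medulla, was represented by 23 libraries of the same 4 groups, with 5 in WT SD and 6 in each of the others. TG mice were homozygous for this transgene, which stands behind a Thy1 promoter that is active in neurons of the central nervous system, and both genotypes were on a C57BL/6 background. The TG and WT mice came from parallel colonies, so that transgene and colony cannot be told apart here. Diets were fed from weaning.

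Members were the genes listed in both regions with a mean raw count of at least 50 in each, which left 12619 of the 35032 genes listed in either region. For every member, the difference between TG and WT with diets averaged was fitted within each region, and the brainstem value was then subtracted from the hippocampus value. A negative region difference therefore means that TG minus WT was lower in hippocampus than in brainstem, whether through a fall in one region or a rise in the other. Fits were made with edgeR's quasi-likelihood test and contained 4 surrogate variables in each region. These are covariates estimated from the counts themselves, meant to stand for variation between libraries that the groups do not describe. The first still correlated with genotype, at -0.45 in brainstem and -0.464 in hippocampus, as did the second in hippocampus (-0.359). A gene was called when its p, adjusted over all 12619 genes by the Benjamini-Hochberg method, was 0.05 or lower and its difference was 0.3 or more in either direction on the log2 scale.

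The transgenic line models Parkinson's disease. Brainstem nuclei are among the first sites of protein deposits in that disease, and mice of this line develop deposits mainly in brainstem and spinal cord. Astrocytes answer neuronal damage with a reactive state, in which the intermediate filament protein Gfap, the protease inhibitor Serpina3n and the complement protein C4b are well-known marks. In bulk tissue, a change in the number of cells of a type and a change in RNA per cell cannot be told apart.

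The region labels matched their markers. The summed level of 15 hindbrain Hox genes lay between 0 and 0.804 CPM (counts scaled to a common library size) in hippocampus libraries and between 37.2 and 186 CPM in brainstem libraries, whereas 9 pyramidal neuron markers summed to 1380 to 1690 CPM in hippocampus and to 150 to 215 CPM in brainstem. Library totals ranged from 10020784 to 15078812 counts in brainstem and from 11945971 to 17328447 in hippocampus. Choroid plexus markers, among them Ttr, summed to 13.8 to 3000 CPM in brainstem libraries of either genotype and to 40.4 to 323 CPM in hippocampus. Their part in the differences below was not tested.

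Thy1, whose promoter drives the transgene, was used only as a control and separated the genotypes without overlap. It had 6914 to 8209 CPM (median 7359) in TG hippocampus and 6448 to 9277 CPM (median 7600) in TG brainstem, against 553 to 620 CPM in WT hippocampus and 483 to 583 CPM in WT brainstem. The genotype labels were thus borne out in all 47 libraries. The mean log2 level of Thy1 in TG mice was -0.041 in hippocampus relative to brainstem (p = 0.411, two-sided permutation test, 12 libraries in each region), a difference that did not pass the test.

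The genotype effect differed between regions for 8 genes, 0.0634% of those tested. TG minus WT was lower in hippocampus than in brainstem for 7 of them (0.0555%; Cntn3, Serpina3n, C4b, Luzp2, Lix1, Pantr1 and Gm29611) and higher for 1 (0.00792%; Sh2d3c). Cntn3 and Serpina3n were called with and without surrogate variables and after each of the 47 libraries was left out in turn. Among 7 fits without surrogate variables, Serpina3n was called in all 7 and Cntn3 in 6. Gm29611 was called in 1, a fit over region pairs in which Cntn3 missed the call. C4b, Luzp2, Lix1, Pantr1 and Sh2d3c were called in 0. At an unadjusted p of 0.05, 1154 genes (9.14%) passed, beside 631 expected by chance. Of the 1154, 728 genes (5.77%) were lower in hippocampus and 426 (3.38%) were higher. Among all tested genes, 54.1% had a region difference below 0.

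**Figure D1:**
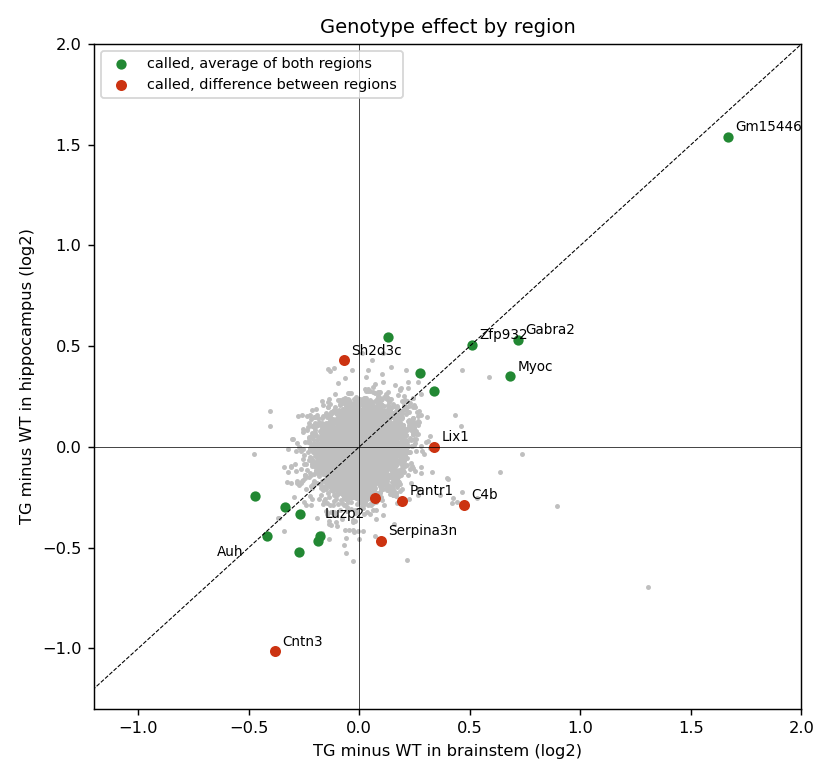
Genotype effects of all tested genes in both regions: each point is a gene, with TG minus WT in brainstem (log2) on the x axis and in hippocampus on the y axis; the diagonal marks equal effects, red points were called for the region difference and green points for the average, and Thy1 and Gm29611 lie outside the axes. Cntn3 sits below the diagonal at -1.01 in hippocampus and -0.38 in brainstem, while C4b and Lix1 sit to the right of 0 in brainstem at 0.47 and 0.34.

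Within single regions and without the controls, 26 genes were called for genotype in hippocampus and 13 in brainstem. The shares of called genes with the controls included were 0.222% and 0.119%. Of the 26 hippocampal genes, 4 were also called for the region difference, and of the 13 brainstem genes, 4 were. Auh, Cntn3, Gabra2, Gm15446, Gm29611 and Zfp932 were called in both regions, 5 of the 6 in the same direction. Without surrogate variables, 87 and 72 genes were called in hippocampus and brainstem.

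Cntn3 carried the clearest difference between regions. It encodes contactin-3, a neuronal adhesion molecule of the immunoglobulin superfamily that is anchored to the membrane by a lipid. In hippocampus, the 12 WT libraries had 17.9 to 22.7 CPM of Cntn3 (median 19.9), and the 12 TG libraries had 8.57 to 12.3 CPM (median 10.3). In brainstem, the 11 WT libraries had 9.93 to 15.4 CPM (median 12.5) and the 12 TG libraries 7.37 to 10.5 CPM (median 9.3). The genotypes did not overlap in hippocampus, whereas in brainstem 1 WT library, WT SD replicate 6 with 9.93 CPM, reached into the TG range. Non-overlap of the TG and WT libraries was found for 0.0317% of tested genes in hippocampus, 4 genes with the controls.

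Cntn3 fell in TG hippocampus by 1.01 on the log2 scale (SE 0.07, 2.02-fold, adjusted p = 3.03e-15, edgeR's quasi-likelihood test with Benjamini-Hochberg adjustment). It also fell in TG brainstem, by 0.38 (SE 0.07, 1.3-fold, adjusted p = 0.00325). The region difference was -0.63 (SE 0.10, 95% confidence interval -0.84 to -0.43, adjusted p = 0.00044). In WT mice Cntn3 was 0.74 higher in hippocampus than in brainstem (log2, SE 0.06). In TG mice this gap was 0.11 (SE 0.07, adjusted p = 0.122), and the TG libraries of both regions covered similar ranges. The difference was nearly equal on both diets, at -0.64 on SD and -0.63 on HFD. Among the 23 alternative settings that gave a value for Cntn3, it lay between -0.68 and -0.49, and it was called in 20. The exceptions were the SD libraries alone (adjusted p = 0.309), the HFD libraries alone (adjusted p = 0.137) and a fit over region pairs without surrogate variables (adjusted p = 0.0628).

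The other contactins did not pass the test. Cntn1, which takes part in axon and myelin contacts, had a region difference of -0.06 (SE 0.04). Cntn2, another axonal contactin, had -0.11 (SE 0.07), Cntn4 had 0.04 (SE 0.08) and Cntn6 had 0.10 (SE 0.13), and Cntn5 was below the count minimum. Of 25 tested genes of neuronal cell adhesion, Cntn3 was the 1 called, with 1 other lower and 1 higher at an unadjusted p of 0.05 (Lrrtm4 and L1cam were among the 4 lowest p). Their median region difference was -0.03, beside -0.01 over all tested genes.

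Serpina3n, a secreted serine protease inhibitor, fell in TG hippocampus, did not pass the test in brainstem, and the difference between the regions passed its own test. The 12 WT hippocampus libraries had 53.1 to 80.7 CPM of Serpina3n (median 71.8), and the 12 TG libraries had 46.9 to 60.9 CPM (median 52.3). WT brainstem had 35.2 to 46.9 CPM (median 39.7) and TG brainstem 32.9 to 65.2 CPM (median 43.9). In hippocampus every WT library lay above every TG library except WT HFD replicate 6, which had 53.1 CPM, while in brainstem the genotypes overlapped broadly and 1 TG HFD library stood high. Serpina3n fell in TG hippocampus by 0.47 (log2, SE 0.07, 1.38-fold, adjusted p = 0.000219, edgeR's quasi-likelihood test with Benjamini-Hochberg adjustment) and had 0.10 in brainstem (SE 0.08, adjusted p = 0.686). The region difference was -0.56 (SE 0.11, 95% confidence interval -0.78 to -0.35, adjusted p = 0.00767).

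The gap in Serpina3n between hippocampus and brainstem was 0.80 in WT (log2, SE 0.07) and 0.23 in TG (SE 0.07). On SD the region difference was -0.42 and on HFD -0.71, neither called on its own, and the change with diet was -0.28 (SE 0.20) and not called. Leaving out the high brainstem library, TG HFD replicate 8 with 65.2 CPM, gave -0.50 (adjusted p = 0.0132). The difference was called in 22 of 24 alternative settings and in all 7 without surrogate variables, and missed with the SD libraries alone (-0.41) and without the 4 libraries farthest from their group means (-0.55, adjusted p = 0.0688).

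**Figure D2:**
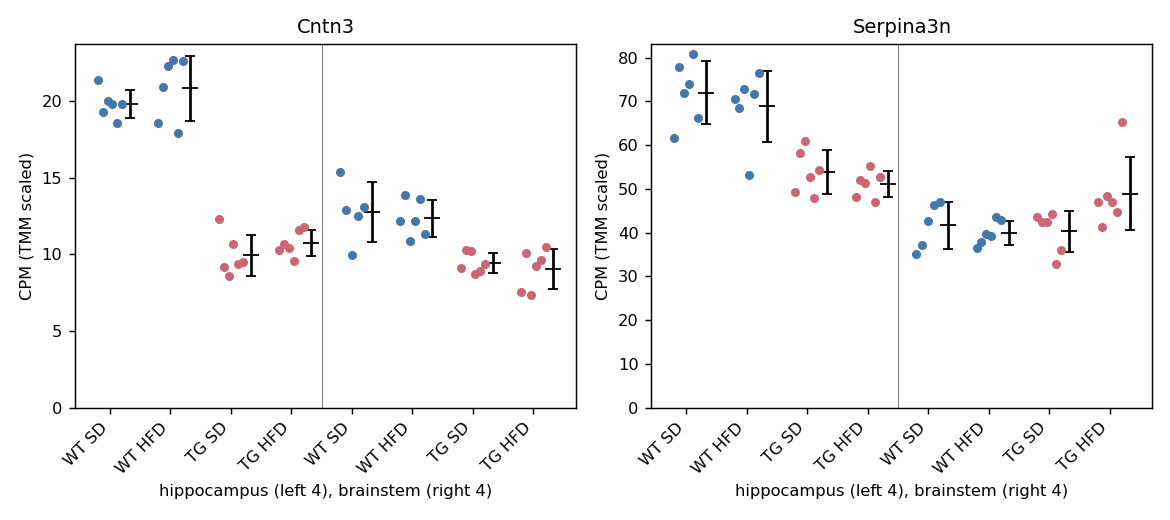
Levels of Cntn3 and Serpina3n in CPM (y axis) in every library by region, genotype and diet (x axis); points are libraries (WT blue, TG red) and bars are group means with SD. In hippocampus the TG libraries of Cntn3 reach 12.3 CPM at most and the WT libraries start at 17.9 CPM; Serpina3n in hippocampus has 1 WT library, at 53.1 CPM, within the TG range, and overlaps broadly in brainstem.

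The promoters of Cntn3 and Serpina3n, the 2 genes called in most fits without surrogate variables, are shown for context. Each is the 250 bases before the gene start from RefSeq on GRCm38.p6, 5′ to 3′ on the gene's strand. Cntn3 is at chr6:102464668-102464917 on the minus strand and Serpina3n at chr12:104406458-104406707 on the plus strand. Capitals mark the letters TTCNNNGAA, the palindrome bound by STAT factors of cytokine signalling, which was searched on both strands.
Cntn3 promoter: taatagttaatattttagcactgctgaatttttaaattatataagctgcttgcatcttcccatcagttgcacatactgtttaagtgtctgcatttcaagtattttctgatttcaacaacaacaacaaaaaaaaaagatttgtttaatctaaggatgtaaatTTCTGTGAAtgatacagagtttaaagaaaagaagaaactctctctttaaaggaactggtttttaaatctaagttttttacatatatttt
Serpina3n promoter: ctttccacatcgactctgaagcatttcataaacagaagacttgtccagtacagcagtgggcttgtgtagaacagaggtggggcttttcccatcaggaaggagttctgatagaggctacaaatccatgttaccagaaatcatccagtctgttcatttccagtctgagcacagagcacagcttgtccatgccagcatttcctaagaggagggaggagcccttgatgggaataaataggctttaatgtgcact
The letters occurred once in the Cntn3 window, 89 bases before the start, and not in the Serpina3n window. They occurred in 7.02% of 32851 promoters of the same length and in 5.5% of the 11592 promoters of tested genes. The stricter TTCCNGGAA of STAT3, which lies within the wider pattern, occurred in 0.913% of promoters. The letters GGGNNTTCC, which do not cover every form of the NF-kappaB site, occurred in 4.98%. The ISRE, an interferon element, occurred in 2.98% and TGANTCA of AP-1 in 6.75%. None of these letter patterns was in either window, and other forms of the sites were not searched. A match, or its absence, is a description of letters only. Of the 8 called genes, 6 had a promoter in the table.

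Genes of the reactive astrocyte state had a smaller TG minus WT value in hippocampus than in brainstem. Of the 16 genes listed, 10 could be tested, and the region difference was below 0 for all 10, beside 54.1% of all tested genes. Serpina3n and C4b were called, and 6 of the 10 were lower at an unadjusted p of 0.05, beside 5.77% of all genes. The list median was -0.26, made up of -0.11 in hippocampus and 0.16 in brainstem, beside -0.01 over all tested genes. Without surrogate variables the median was -0.23 with the same 10 below 0, and without brainstem TG HFD replicate 8 and surrogate variables it was -0.22. The shares and median of all tested genes, here and for the lists below, are those of the fit with surrogate variables. List values without surrogate variables therefore stand without an all-gene share beside them. The list was chosen with earlier results of these data known, so the count describes these libraries and is no independent support.

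C4b, a complement protein that tags synapses and debris, rose in TG brainstem in the fit with all libraries and surrogate variables. Its levels were 36.5 to 57.3 CPM (median 48.6) in WT brainstem and 44.9 to 151 CPM (median 54.1) in TG brainstem, against 48.8 to 90.4 CPM (median 61.1) in WT hippocampus and 48.6 to 66.3 CPM (median 58.4) in TG hippocampus. The genotypes overlapped in both regions, and the brainstem range of TG was stretched by 1 library, TG HFD replicate 8 with 151 CPM, next to 44.9 to 63.2 CPM in the other 5 of its group. C4b rose by 0.47 in TG brainstem (log2, SE 0.12, 1.39-fold, adjusted p = 0.0443, edgeR's quasi-likelihood test with Benjamini-Hochberg adjustment) and had -0.29 in hippocampus (adjusted p = 0.257). The region difference was -0.76 (SE 0.17, adjusted p = 0.0482).

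The brainstem rise of C4b was 0.28 without brainstem TG HFD replicate 8, below the size required for a call, and 0.40 without surrogate variables (adjusted p = 0.057), so that it was not called in either fit. Without that library, the region difference of C4b was -0.57 (adjusted p = 0.00041), and without surrogate variables as well it was -0.32 (adjusted p = 0.971). With all libraries and no surrogate variables it was -0.49 (adjusted p = 0.945), and the call was lost after 33 of the 47 single libraries were left out, with values of -0.78 to -0.56. The near-identical C4a had -0.79 (adjusted p = 0.0709), and reads of the pair may have been split between them.

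Gfap rose in TG brainstem in the same fit. It had 248 to 424 CPM (median 312) in WT brainstem and 275 to 672 CPM (median 357) in TG brainstem, where the highest value was again a TG HFD library. In hippocampus it had 289 to 419 CPM (median 352) in WT and 279 to 395 CPM (median 316) in TG. The groups overlapped in both regions. Gfap rose by 0.40 in TG brainstem (log2, SE 0.09, 1.32-fold, adjusted p = 0.0143, edgeR's quasi-likelihood test), had -0.15 in hippocampus (adjusted p = 0.491) and missed the call for the region difference (-0.55, SE 0.13, adjusted p = 0.0707). Without brainstem TG HFD replicate 8 the brainstem value of Gfap was 0.29 and the region difference -0.44 (adjusted p = 0.0386), and without surrogate variables they were 0.29 (adjusted p = 0.0739) and -0.41 (adjusted p = 0.827), so that the rise was not called in either fit.

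Other astrocyte genes had region differences in the same direction that did not pass the test. The water channel Aqp4 had -0.25 (SE 0.08, adjusted p = 0.313), the oncostatin M receptor Osmr -0.45 (SE 0.18, adjusted p = 0.45) and the filament protein Vim -0.24 (SE 0.09, adjusted p = 0.401). Slc1a3, the glial glutamate transporter GLAST, had an adjusted p of 0.0482 with a region difference of -0.24 (SE 0.05), under the size required for a call. Without hippocampus WT HFD replicate 8 the value of Slc1a3 was -0.16 (adjusted p = 0.22), without hippocampus WT SD replicate 6 it was -0.18 (adjusted p = 0.392), and without surrogate variables it lay between -0.15 and -0.05. Of the 8 general astrocyte markers, 7 had a region difference below 0, beside 54.1% of all tested genes. At an unadjusted p of 0.05, 4 of the markers were lower, beside 5.77% of all tested genes. Gfap and Aqp4 belong to this list and to the reactive astrocyte list, so these counts are no separate support. The median of these markers was -0.10, or -0.03 without surrogate variables. Their summed level was 4170 to 5130 CPM in WT and 4360 to 5230 CPM in TG hippocampus, and 2840 to 3200 CPM in WT and 2860 to 3730 CPM in TG brainstem.

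**Figure D3:**
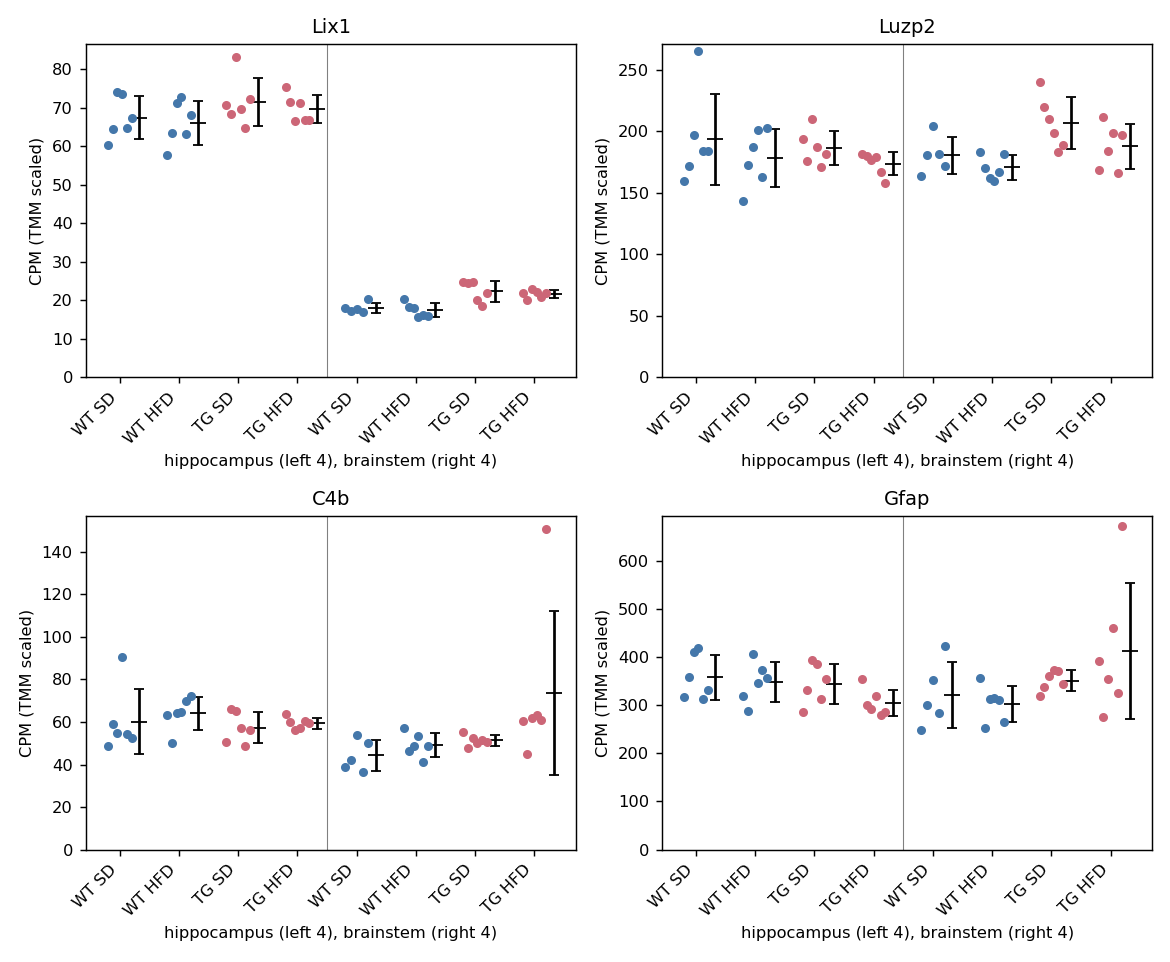
Levels of Lix1, Luzp2, C4b and Gfap in CPM (y axis) in every library by region, genotype and diet (x axis); points are libraries (WT blue, TG red) and bars are group means with SD. For C4b and Gfap the highest brainstem value is a TG HFD library, at 151 and 672 CPM; Lix1 is shifted upwards in TG brainstem with overlap.

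Interferon response and MHC class I genes, which present peptides to T cells or answer interferon, gave no call. Of 22 listed, 12 were tested, 10 were below 0 and 3 were lower at an unadjusted p of 0.05. Their median was -0.22, or -0.08 without surrogate variables. Over all tested genes 54.1% were below 0, 5.77% were lower at that p and the median was -0.01. H2-D1, a class I heavy chain, had a region difference of -0.29 (SE 0.10, adjusted p = 0.358), and B2m, the light chain, had -0.23 (SE 0.09, adjusted p = 0.449). H2-T23, a nonclassical class I gene, had -0.29 (SE 0.11, adjusted p = 0.43). The spread in hippocampus lay mostly below 0 and in brainstem close to 0, with list medians of -0.17 and 0.04.

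Markers of microglia and of endothelium, the cells of brain defence and of vessel walls, were below 0 throughout without a call. Beside them, in the fit with surrogate variables, 54.1% of all tested genes were below 0 and 5.77% were lower at an unadjusted p of 0.05. The median of all tested genes was -0.01. All 9 microglia markers had a region difference below 0, 4 of them at an unadjusted p of 0.05, with a median of -0.17 (without surrogate variables -0.13 with 8 of 9 below 0 and 0 at that p). C1qb, a subunit of the complement starter C1q, had -0.29 (SE 0.09, adjusted p = 0.267), and Csf1r, the receptor on which microglia depend, had -0.17 (SE 0.06, adjusted p = 0.366). All 7 endothelial markers were below 0, 5 at an unadjusted p of 0.05, with a median of -0.16, or -0.10 without surrogate variables. Cldn5, a tight junction protein, had -0.30 (SE 0.13, adjusted p = 0.478). The summed level of the microglia markers overlapped between genotypes, at 361 CPM or more in WT (median 402) and 348 to 442 CPM in TG hippocampus and at 315 to 429 CPM in WT and 280 to 503 CPM in TG brainstem. The part of these cells in the values of Serpina3n, C4b and Gfap was not tested.

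**Figure D4:**
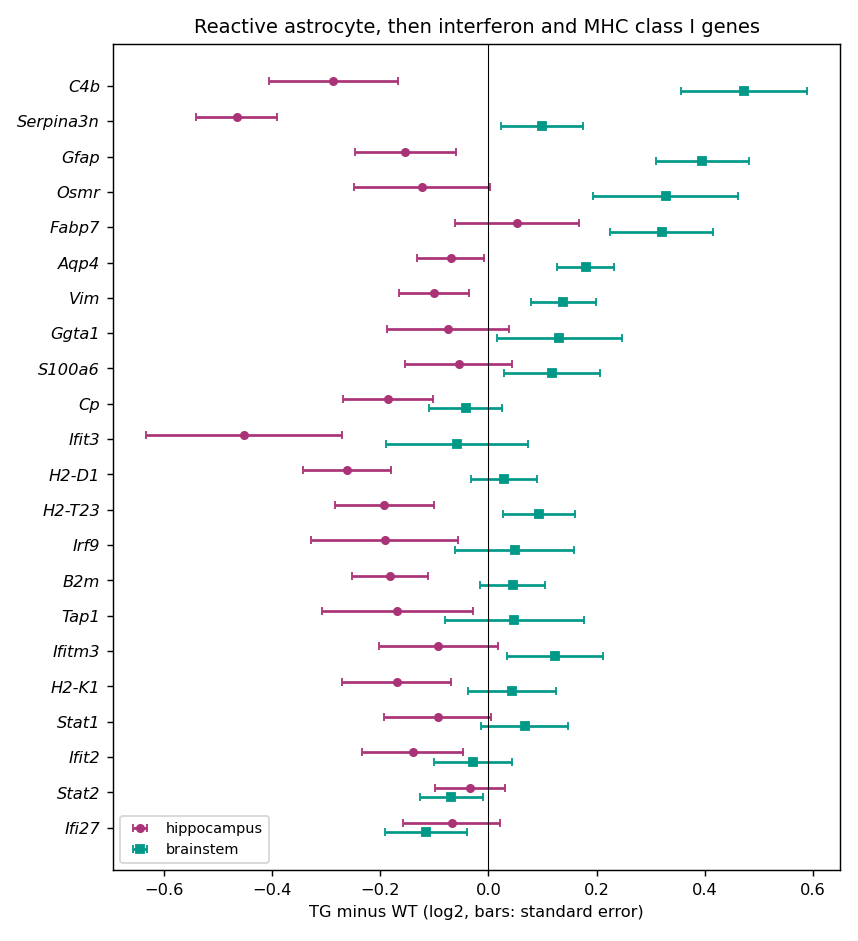
TG minus WT (log2, x axis) with its standard error for each tested reactive astrocyte gene and each tested interferon or MHC class I gene (y axis), in hippocampus and in brainstem. The hippocampus value lies to the left of the brainstem value for all 10 reactive astrocyte genes and for 10 of the 12 interferon and MHC class I genes.

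Lix1 rose in TG brainstem and was not called in hippocampus. The 11 WT brainstem libraries had 15.6 to 20.3 CPM of Lix1 (median 17.8) and the 12 TG libraries 18.4 to 24.6 CPM (median 21.9). Hippocampus held 57.7 to 74.1 CPM (median 66) in WT and 64.7 to 83.1 CPM (median 70.1) in TG. Most TG brainstem libraries lay above the WT range, with overlap between 18.4 and 20.3 CPM. Lix1 rose by 0.34 in brainstem (log2, SE 0.05, 1.26-fold, adjusted p = 0.000259, edgeR's quasi-likelihood test), had 0.00 in hippocampus (SE 0.04) and a region difference of -0.34 (SE 0.07, adjusted p = 0.0238). Without surrogate variables the rise in brainstem was 0.31 (adjusted p = 0.00137) and the hippocampal value 0.08 (adjusted p = 0.356). The region difference of Lix1 was then -0.23 (adjusted p = 0.827). Leaving out 1 library lost the call for the region difference in 10 of 47 fits, with values of -0.34 to -0.27.

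Luzp2, a leucine zipper protein, was called although its levels overlapped between genotypes in both regions. It had 143 to 265 CPM (median 184) in WT and 158 to 210 CPM (median 180) in TG hippocampus, and 160 to 204 CPM (median 172) in WT and 166 to 240 CPM (median 198) in TG brainstem. With surrogate variables Luzp2 fell by 0.25 in TG hippocampus (log2, SE 0.04, adjusted p = 3.33e-05, edgeR's quasi-likelihood test), had 0.07 in brainstem and a region difference of -0.33 (SE 0.05, adjusted p = 0.00038). Without them the hippocampal value was -0.05, the brainstem value 0.17 and the region difference -0.21 (adjusted p = 0.999). The call was lost in 8 of the 47 fits that left out 1 library, with values of -0.30 to -0.22, and the highest hippocampal level belonged to WT SD replicate 6.

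Pantr1, a long noncoding RNA next to the neural transcription factor gene Pou3f3, had a region difference of -0.46 (log2, SE 0.10, adjusted p = 0.0238, edgeR's quasi-likelihood test). It had 26.7 to 44.4 CPM (median 36.2) in WT and 26.9 to 39.1 CPM (median 33.1) in TG hippocampus, and 6.49 to 11.6 CPM (median 7.95) in WT and 7.37 to 12.2 CPM (median 8.93) in TG brainstem. The genotypes overlapped almost fully in both regions. Without surrogate variables the region difference of Pantr1 was -0.24 (adjusted p = 0.999), and 20 of the 47 fits without 1 library lost the call, with values of -0.47 to -0.31.

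Sh2d3c, an adaptor protein of integrin and receptor signalling, was the 1 gene called with a higher effect in hippocampus. Its mean was 10.4 CPM in WT hippocampus and 10.4 CPM in TG hippocampus (SD 2.03 and 1.68, n = 12 each), while in brainstem it was 14.2 CPM in WT (SD 2.41, n = 11) and 11.9 CPM in TG (SD 2.84, n = 12). The group means in hippocampus were thus equal before adjustment. With surrogate variables Sh2d3c had 0.43 in hippocampus (log2, adjusted p = 0.00132, edgeR's quasi-likelihood test), -0.07 in brainstem and a region difference of 0.50 (SE 0.10, adjusted p = 0.0238). Without them it had 0.00 in hippocampus, -0.23 in brainstem and a region difference of 0.23 (adjusted p = 0.999), and 12 of the 47 fits without 1 library lost the call of Sh2d3c, with values of 0.29 to 0.50.

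Gm29611, a predicted gene, had the lowest p of all, with a fitted region difference of -10.90 (log2, SE 1.6, adjusted p = 0.000103, edgeR's quasi-likelihood test), and its size cannot be read as a fold. Its median was 0.114 CPM in WT SD hippocampus and 0 in WT HFD hippocampus, while single libraries were high. WT SD replicate 6 had 72.2 CPM of Gm29611 in hippocampus, and TG SD replicate 5 had 55.8 CPM in brainstem. The value was set by which libraries held the transcript. It was 2.44 with the HFD libraries alone and -0.91 without hippocampus WT HFD replicate 6, so that neither its sign nor its size was stable.

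Of the genes with an adjusted p under 0.05 and a difference too small for a call, Npc2 and Dnajc3 remain beside Slc1a3. Npc2, which hands cholesterol out of the lysosome, had 44.5 to 59.0 CPM (median 47.8) in WT and 40.9 to 52.9 CPM (median 45.5) in TG hippocampus, and 98.6 to 125 CPM (median 106) in WT and 99.6 to 127 CPM (median 113) in TG brainstem. The genotypes overlapped in both regions. Its region difference was -0.26 (log2, SE 0.04, adjusted p = 0.00044, edgeR's quasi-likelihood test), or between -0.15 and -0.11 without surrogate variables. Dnajc3, a cochaperone of the endoplasmic reticulum, had -0.21 (SE 0.04, adjusted p = 0.0238), or between -0.14 and -0.07 without surrogate variables. Cbarp, which binds and restrains voltage-gated calcium channels, came next in p. It fell in TG hippocampus from 116 to 191 CPM (median 161) in WT to 83.7 to 114 CPM (median 103) in TG, without overlap. The effect of Cbarp was -0.43 in hippocampus (SE 0.04, adjusted p = 5.47e-10) and -0.17 in brainstem (SE 0.04, adjusted p = 0.0446), and the region difference missed the call (-0.26, SE 0.06, adjusted p = 0.0595). Without surrogate variables Cbarp had -0.67 in hippocampus (adjusted p = 3.05e-05) and -0.43 in brainstem (adjusted p = 0.0285), a call in both regions. Its region difference was then -0.23 (adjusted p = 0.999). With GC correction and no surrogate variables Cbarp had -0.445 in hippocampus and -0.225 in brainstem, the latter under the size required for a call.

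**Figure D5:**
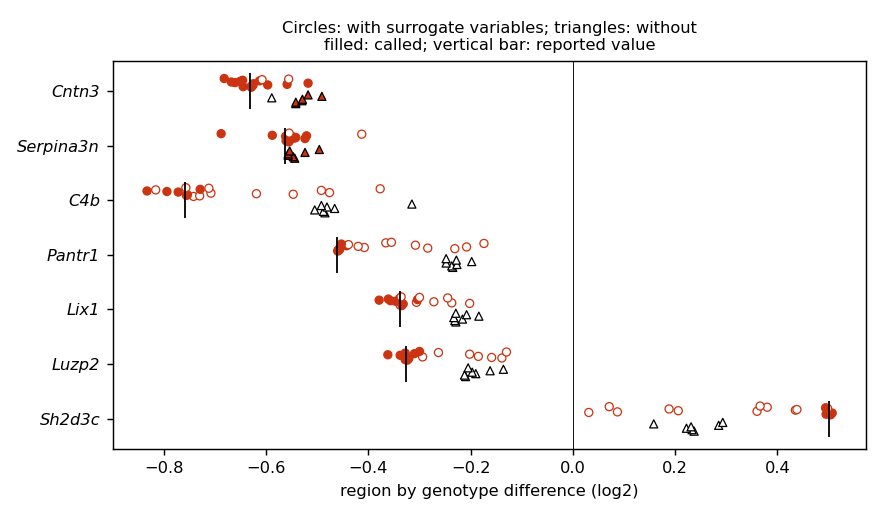
Region difference of the genotype effect (log2, x axis) for 7 called genes (y axis) under each alternative; circles are fits with surrogate variables and triangles fits without them, filled symbols are calls and the bar is the reported value. Serpina3n has 7 filled triangles of 7 and Cntn3 6 of 7, whereas the triangles of the other 5 genes are open and lie nearer to 0.

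Several genes responded to genotype with similar size in both regions. Averaged over regions, 15 genes were called without the controls, 0.135% of tested genes with them. Gm15446, a predicted gene, rose from 4.81 to 25.1 CPM (median 7.12) in WT to 24.2 to 30.6 CPM (median 25.4) in TG hippocampus and from 6.61 to 18.7 CPM (median 8.81) to 25.7 to 38.5 CPM (median 31) in brainstem. Its average effect was 1.60 and its region difference -0.13 (95% confidence interval -0.69 to 0.43). Zfp932, a zinc finger gene, rose by 0.51 on average with a region difference of 0.00 (interval -0.23 to 0.23). Auh, a mitochondrial enzyme of leucine breakdown, fell by 0.43 on average with a region difference of -0.03 (interval -0.23 to 0.17). The intervals of Zfp932 and Auh do not reach the region difference of Cntn3, and that of Gm15446 does.

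Gabra2, the alpha2 subunit of the GABA-A receptor, rose in both regions. It had 75.7 to 280 CPM (median 166) in WT and 249 to 307 CPM (median 271) in TG hippocampus, and 34.9 to 89.2 CPM (median 59.5) in WT and 98.5 to 126 CPM (median 105) in TG brainstem. The genotypes were apart in brainstem and overlapped at the top of the WT range in hippocampus. Gabra2 rose by 0.53 in hippocampus (log2, adjusted p = 0.0351, edgeR's quasi-likelihood test) and by 0.72 in brainstem (adjusted p = 0.00278), and its region difference was -0.18 (SE 0.19, interval -0.56 to 0.19). Of 11 tested GABA-A receptor subunits 0 were called for the region difference, and the list median was -0.08. DESeq2 and limma-voom called 0 of these 11 as well. Grip2, a scaffold of glutamate receptors, had a region difference of 0.03 (SE 0.18).

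Further genes were called on average with a region difference that missed the test. Myoc, the extracellular protein myocilin, rose by 0.52 on average, with 0.35 in hippocampus and 0.68 in brainstem. Without surrogate variables Myoc had 0.32 on average (adjusted p = 0.011), 0.16 in hippocampus and 0.48 in brainstem. Slc7a3, a transporter of cationic amino acids, rose by 0.34 on average, with 0.55 in hippocampus, 0.13 in brainstem and a region difference of 0.42 (SE 0.16, adjusted p = 0.43); without hippocampus WT SD replicate 6 the average of Slc7a3 was 0.30 and not called. Gm15446, Zfp932, Auh, Gabra2, Myoc and Slc7a3 were called in all 6 fits without surrogate variables. Etnppl (-0.40), an astrocyte enzyme of phospholipid breakdown, Mmp14 (0.32), a membrane-bound metalloproteinase, Igsf1 (0.31), 1700087I21Rik (-0.32) and Gt(ROSA)26Sor (-0.33) were called in 0 of those 6. The average of Etnppl was -0.13 (adjusted p = 0.535) without hippocampus WT SD replicate 6, which had 42.6 CPM beside 12.1 to 15.5 CPM in the other 5 of its group.

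Most genes called in one region alone missed the call for the region difference, which does not show that the regions responded alike. Of the 20 genes called in hippocampus and not in brainstem, 18 were not called for the region difference, and of the 7 called in brainstem and not in hippocampus, 5 were not. Examples chosen after their values were seen were Slc38a3, a glutamine transporter, with -0.33 in hippocampus, -0.11 in brainstem and a region difference of -0.22 (adjusted p = 0.318), and Hpcal1, a neuronal calcium sensor, with 0.35, 0.03 and 0.32 (adjusted p = 0.101). Nptx2, a secreted synaptic protein, had -0.30, 0.02 and -0.32 (adjusted p = 0.419). In brainstem, Lpl, the lipoprotein lipase, had 0.43 against 0.16 in hippocampus (region difference -0.27, adjusted p = 0.442). Car12, a carbonic anhydrase, rose in hippocampus by 0.39 from 24.7 to 37.4 CPM in WT to 36.9 to 44.9 CPM in TG. In brainstem Car12 ranged from 0.607 to 22.1 CPM over both genotypes, and its region difference was 0.53 (SE 0.17, adjusted p = 0.283).

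The region difference within single diets was called for few genes. On SD it was called for 4 genes (0.0317%), which were Cntn3 (-0.64), Luzp2 (-0.31), Rsbn1 (-0.55) and Gm29611. On HFD it was called for 1 gene (0.00792%), Npc2 with -0.33 (SE 0.06, adjusted p = 0.0472, edgeR's quasi-likelihood test). A change of the region difference with diet was called for 0 genes (0.0%) by edgeR, DESeq2 and limma-voom. In edgeR 660 genes passed an unadjusted p of 0.05 for this change, beside 631 expected by chance. For Cntn3 this change was 0.01 (SE 0.19), for Serpina3n -0.28 (SE 0.20) and for C4b -0.38 (SE 0.31). Effects of moderate size on one diet could not be told from 0 with these standard errors.

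The remaining lists had 0 calls for the region difference. At an unadjusted p of 0.05, where 9.15% of all genes passed, the shares differed between lists. A region difference below 0 was held by 54.1% of all tested genes. Both shares are those of the fit with surrogate variables. For nuclear OXPHOS subunits, 79 tested, the median region difference was 0.00 with 4 lower and 3 higher at an unadjusted p of 0.05. Among 40 tested synaptic vesicle and release genes 2 were lower and 3 higher (median 0.01), and among 36 glutamate receptor genes 3 were lower and 0 higher (median -0.03). Cytosolic ribosomal protein genes, 84 tested, had a median of 0.02 with 4 higher and 0 lower, and the 13 mitochondrially encoded genes had 0.07 with 2 below 0 and with 2 higher and 1 lower at that p (23.1%). Lysosome and autophagy genes, 57 tested, had a median of -0.02 with 5 lower and 1 higher. Homologs of familial Parkinson disease genes, 21 tested, had a median of 0.01, with Lrrk2, the kinase most often mutated in the inherited disease, at 0.26 (SE 0.07, adjusted p = 0.209). Among 9 oligodendrocyte markers all were below 0 with a median of -0.08, which turned to 0.06 with 2 of 9 below 0 when surrogate variables were left out. Enzymes of leucine breakdown and related mitochondrial steps, 18 tested, had 14 below 0, 4 lower and 0 higher at that p (22.2%) and a median of -0.05, or -0.02 with 10 below 0 and 0 lower without surrogate variables. All 6 tested hippocampal interneuron markers were below 0, with 2 lower at that p (33.3%), among them Reln, an extracellular guidance protein, at -0.27 (SE 0.09, adjusted p = 0.336). Without surrogate variables 3 of these 6 were below 0. Immediate early genes, 15 tested, had 2 lower and 1 higher and a median of -0.01. Neuropeptide and granin genes, 20 tested, had 3 lower and 2 higher at that p (25.0%) and a median of -0.05, with Penk, the enkephalin precursor, at -0.43 (SE 0.15, adjusted p = 0.343) and Resp18, a protein of secretory granules, at 0.25 (SE 0.07, adjusted p = 0.177).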

How the data were processed

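RNA-seq was made from poly(A) RNA of brainstem and hippocampus. The authors aligned reads with STAR 2.7.9a after FastQC 0.11.9 and counted them per gene, and the deposited values are raw counts, 1 table per region. How reads were assigned to genes, and whether strand was used, is not given in the sources used here, so near-identical and overlapping genes (C4a and C4b, predicted genes) are uncertain. The authors tested with DESeq2 1.32.0.

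Tables were joined by gene ID, 47 libraries of 8 groups. Genes whose mean count reached 50 in each region were tested in 1 edgeR 4.0.16 quasi-likelihood model (R 4.3.3) with TMM factors, a mean for each group and 4 surrogate variables per region (svaseq of sva 3.50.0). Calls needed p to be 0.05 or lower after Benjamini-Hochberg adjustment and a log2 difference of 0.3, thresholds that the study used. CPM values (counts scaled to a common library size) are TMM-scaled without surrogate variables. The study took both regions from 6 mice per group, so hippocampus and brainstem libraries may share animals; which ones do is not given by the labels, and libraries were treated as independent. The control gene Thy1 was compared by permutation with 100000 resamples; another control, left out of the counts given without controls, and some further genes are not reported here. The fit was also run on simulated counts that held no hidden variation between libraries, so that run does not test the surrogate variables.

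Named were all genes called for the region difference, filled up to 12 by lowest p; up to 12 genes of lowest p called on average; 8 genes that the study names; and up to 4 of lowest p per list. Nab2 and Ppp1r14a, which the study names, were below the count minimum. Members and lists were chosen with earlier results of these data known, and lists are described without a set test. Symbols came from GENCODE for 12601 of the 12619 genes, by ID.

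Alternatives were DESeq2 1.42.0, limma-voom (limma 3.58.1), other scalings, filters and numbers of surrogate variables, GC and length corrections, replicate blocks, single diets and leaving out libraries; the 3 that leave out the 4 farthest libraries or brainstem TG HFD replicate 8 together with the surrogate variables were added after the data were seen.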

Additional observations from a re-analysis of the deposited data

Results flagged for a closer look

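Among the controls and the genes named for the region difference, in 13 of 112 groups of 5 or 6 libraries, 1 library stood far from the rest by Dixon's criterion at 95%, where about 1 in 20, or 5.6, are reached by chance. C4b had 151 CPM in brainstem TG HFD replicate 8 (the other 5 at 44.9 to 63.2) and 90.4 CPM in hippocampus WT SD replicate 6 (48.8 to 59.0). Serpina3n had 65.2 CPM in the same brainstem library (41.3 to 48.4) and 53.1 CPM in hippocampus WT HFD replicate 6 (68.5 to 76.4). Hippocampus WT SD replicate 6 was also far for Luzp2 (265 CPM, others 160 to 197), Npc2 (59.0 CPM, others 44.5 to 47.8) and Gm29611 (72.2 CPM). Gm29611 stood far at 14.4 CPM in brainstem WT HFD replicate 2 and at 11.5 CPM in hippocampus WT HFD replicate 3. Brainstem WT SD replicate 6 was far for Sh2d3c (7.86 CPM, others 13.4 to 15.2), Slc1a3 (298 CPM, others 199 to 214) and Thy1 (483 CPM, others 553 or more). Dnajc3 had 96.6 CPM in brainstem TG HFD replicate 3 (others 73.9 to 81.3).

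Genotype effects differed between hippocampus and brainstem for 8 genes by the test of that difference (log2, hippocampus minus brainstem). The values were -0.632 for Cntn3, -0.564 for Serpina3n, -0.759 for C4b, -0.327 for Luzp2, -0.338 for Lix1, -0.462 for Pantr1, 0.501 for Sh2d3c and -10.9 for Gm29611. What sets the far libraries apart was not tested.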

How the results depend on the processing

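The region difference called 8 genes. It called 2 genes with DESeq2 without surrogate variables, with 0 and with 3 surrogate variables per region, with GC or length correction without surrogate variables, and without brainstem TG HFD replicate 8 or without the 4 farthest libraries when surrogate variables were also left out. It called 15 and 14 genes with 1 and 2 surrogate variables, 4 with limma-voom, 14 with a total count filter (19718 genes tested), 0 with the SD libraries alone, 13 with the HFD libraries alone and 1 without the 4 farthest libraries. The genes differed more than the counts: of the 8, 3 were also called with 1 and 3 with 2 surrogate variables, 1 with the HFD libraries alone, 2 of 9 with joint surrogate variables, 3 of 7 with GC correction and surrogate variables, 6 of 14 with the total count filter and 6 of 8 with DESeq2. Whether a replicate number marks the same mouse in both regions is not given by the labels and was not settled by the data. Over 17 pairs of the same number in both regions, deviations from the group means correlated between -0.104 and 0.593 (median 0.125). Group means for unlike numbers were -0.038 to -0.01. Of the 17 pairs, 10 were above 0.1 and 6 fitted their own number best. Same numbers in different groups of 1 region, which cannot mark the same mouse, also correlated. Their mean was 0.115 in hippocampus (unlike numbers -0.023) and 0.041 in brainstem (unlike numbers -0.004). With a replicate block by number 6 genes were called, with a block of region pairs over 34 libraries without surrogate variables 2 (Cntn3 lost, adjusted p = 0.0628), and with a random replicate block (consensus correlation 0.0903) 13, Cntn3 and Serpina3n among them. Leaving out 1 library gave 2 (without hippocampus WT HFD replicate 6) to 13 (without brainstem TG HFD replicate 8) calls.

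Calls for hippocampus, brainstem and the average numbered 26, 13 and 15. They were 106, 68 and 240 with no fold threshold, 115, 100 and 124 with DESeq2 without surrogate variables, 87, 72 and 125 with 0 surrogate variables, 111, 75 and 113 with length correction without surrogate variables, 40, 21 and 31 with the total count filter, 13, 7 and 6 with a higher mean count filter (8064 genes tested), and 99, 181 and 149 without brainstem TG HFD replicate 8 and surrogate variables. With 1 and 2 surrogate variables hippocampus had 177 and 173 and the average 43 and 36. DESeq2 gave 17 in hippocampus and 7 on average, and the 4 farthest libraries left out gave 14 and 9, or 201 and 91 without surrogate variables. GC correction gave 70 in hippocampus with surrogate variables and 28 on average without them, filterByExpr 28 on average, the SD libraries 7 in hippocampus, and the HFD libraries 202, 3 and 27. Leaving out 1 library gave 13 (without hippocampus WT SD replicate 6) to 72 (without hippocampus WT HFD replicate 8) in hippocampus, 9 to 18 in brainstem and 12 to 20 on average.

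On SD, 4 genes were called; 1 with DESeq2, with GC correction and surrogate variables, with the higher mean count filter and with the block of region pairs; and 0 with DESeq2 without surrogate variables, 0, 1 or 2 surrogate variables, joint surrogate variables, GC or length correction without surrogate variables, the replicate block by number, and without the 4 farthest libraries (with or without surrogate variables) or brainstem TG HFD replicate 8. On HFD, 1 gene was called; 38 and 29 with 1 and 2 surrogate variables, 2 with joint ones, and 0 with DESeq2, limma-voom, TMM within each region, 3 surrogate variables, filterByExpr, the total count filter, GC correction with surrogate variables, the replicate block by number, the random replicate block, or without the 4 farthest libraries. Leaving out 1 library gave 0 to 6 on SD, 0 to 3 on HFD and 0 to 1 for the change with diet.

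Where the reported or the alternative fit was called, the sign turned for Gm29611 (2.44, HFD libraries alone). On average it turned for Etnppl (0.012) and Mmp14 (-0.002) without the 4 farthest libraries and surrogate variables. The average of Gt(ROSA)26Sor turned to 0.028 with DESeq2 without surrogate variables and to 0.023 with 0 surrogate variables. It was 0.045 with length correction, 0.044 without the 4 farthest libraries and 0.052 without brainstem TG HFD replicate 8, all 3 without surrogate variables. Region differences that were not called also changed sign between settings, among them Grip2 (-0.35 to 0.304), Auh (-0.08 to 0.051) and Zfp932 (-0.073 to 0.145). The cause was not tested. Over all named genes and settings the region difference kept its side of the threshold 986 times, lost the call 208 times and gained it 7 times. The 986 include turns of sign where neither fit was called. For the average the counts were 703, 123 and 0. Surrogate variable 1 correlated with genotype at -0.45 in brainstem and -0.464 in hippocampus, and the median slope of expression on GC content was below 0 in TG and above 0 in WT in both regions. Depth limits the genes near the count minimum.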

Other observations

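Of the genes called for genotype in both regions, Gabra2, Auh and Gm15446 were spread more widely among WT than among TG libraries. Gm29611 went the other way in brainstem, where TG libraries reached 55.8 CPM and WT libraries 14.4 CPM. In hippocampus its WT libraries reached 72.2 CPM and its TG libraries 1.31 CPM. Zfp932 ranged from 14.4 to 27.6 CPM in WT and from 24.9 to 32.6 CPM in TG hippocampus. In brainstem Zfp932 had 17.4 to 29.6 CPM in WT and 22.9 to 37.3 CPM in TG. Gabra2 had an SD of 63.5 CPM over 12 WT and of 15.1 CPM over 12 TG hippocampus libraries, and of 15.5 and 7.54 CPM in brainstem. Auh had an SD of 5.79 CPM in WT and 1.81 CPM in TG hippocampus, and 7.37 and 3.14 CPM in brainstem. Gm15446 had 5.77 and 1.92 CPM in hippocampus and 4.27 and 3.74 CPM in brainstem. WT SD replicate 7 was the lowest Gabra2 library of both regions, with 75.7 CPM in hippocampus and 34.9 CPM in brainstem. Cntn3 had an SD of 1.66 CPM in WT and 1.15 CPM in TG hippocampus. These spreads were noticed after the values were seen and were not tested.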
